A study of Mus musculus with 23 samples.

Results

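The genes described here are 10 testis paralogs of housekeeping genes: Pdha2, Ldhc, Gapdhs and Pgk2 of glucose and pyruvate metabolism, Cyct, Cox6b2, Cox7b2 and Cox8c of the respiratory chain, and Rpl39l and Rpl10l of the ribosome. They were chosen by symbol, and all 10 of them are among the 19661 genes that the platform annotation names, each with 1 probe set. The study measured total RNA of spermatogenic cells isolated from testes of mice aged 14.5 days with 23 Affymetrix Mouse Gene 1.0 ST arrays, each given a pool of 4 testes. The parents were PWD, an inbred strain derived from Mus musculus musculus, and B6, the common laboratory strain of mostly Mus musculus domesticus descent (3 arrays each). Their reciprocal F1 hybrids were PWDxB6 and B6xPWD (3 arrays each), and the control F1 crosses within a subspecies comprised 2 arrays of PWDxPWK, 3 of BALB/CxB6 and 6 of B6xBALB/C. By convention the mother's strain is written first. All animals had the same age, the labels name no transgene or treatment, and the authors had left out a PWDxPWK array as an outlier. Since nothing in the labels assigns the pools to different litters, the p-values cover the spread between these pools alone, and it may be partly technical.

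Male germ cells replace several enzymes and ribosomal proteins of ordinary cells by testis forms when they enter meiosis. Some of these forms, such as Pdha2, Pgk2 and Rpl10l, arose by retroposition of an X-linked gene to an autosome, and they are known to be transcribed when the sex chromosomes are silent in pachytene spermatocytes. Others, such as Ldhc and Cyct, switch on in meiosis, while Gapdhs is known as a gene of later spermatids. Male PWDxB6 hybrids are known for arrest in meiosis, and males of the reverse cross are affected less.

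All 10 genes lie on autosomes in the RefSeq annotation of GRCm38.p6: Pdha2 on chromosome 3, Cyct on 2, Cox7b2 on 5, Ldhc, Cox6b2 and Gapdhs on 7, Rpl10l and Cox8c on 12, Rpl39l on 16 and Pgk2 on 17. Promoters, here the 250 bases before an annotated start, were found in the RefSeq table for 9 of the 10 genes, with 11 starts in all, since Ldhc and Gapdhs have 2 each. The letters TGACG, a part of the cAMP response element known from germ cell promoters, were searched on both strands and occurred in 2 of these 11 promoters, against 17.8% of 32851 promoters of the same length. The full element TGACGTCA, which contains TGACG, and the letters CAACTG (MYB) and GTTGCC (RFX) occurred in 0 of 11, against 1.55%, 11.1% and 10.4% of all promoters. A match is a description of letters and not a binding site. The 4 promoters below, each written 5′ to 3′ on the strand of its gene, are shown because the first pair holds TGACG and the second pair had the widest called differences between the hybrids and from the mid-parent described below: Ldhc (chr7:46861013-46861262, plus strand), Cox7b2 (chr5:71548206-71548455, minus strand), Rpl39l (chr16:10169978-10170227, plus strand) and Pdha2 (chr3:141212356-141212605, minus strand). Capitals mark TGACG, which in Cox7b2 stands on the other strand and reads CGTCA.
Ldhc: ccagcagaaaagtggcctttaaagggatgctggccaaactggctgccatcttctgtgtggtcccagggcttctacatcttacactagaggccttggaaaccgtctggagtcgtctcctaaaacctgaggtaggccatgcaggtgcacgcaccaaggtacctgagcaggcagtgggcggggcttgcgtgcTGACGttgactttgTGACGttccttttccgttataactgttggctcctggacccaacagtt
Cox7b2: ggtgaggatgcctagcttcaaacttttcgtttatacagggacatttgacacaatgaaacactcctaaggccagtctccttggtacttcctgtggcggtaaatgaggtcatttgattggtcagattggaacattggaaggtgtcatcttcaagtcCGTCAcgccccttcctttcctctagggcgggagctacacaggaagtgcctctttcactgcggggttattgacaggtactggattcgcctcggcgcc
Rpl39l: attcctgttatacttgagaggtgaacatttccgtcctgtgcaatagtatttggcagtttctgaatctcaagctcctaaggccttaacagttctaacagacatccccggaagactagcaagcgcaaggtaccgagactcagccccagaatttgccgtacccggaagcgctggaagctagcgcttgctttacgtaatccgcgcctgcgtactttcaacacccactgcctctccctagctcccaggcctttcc
Pdha2: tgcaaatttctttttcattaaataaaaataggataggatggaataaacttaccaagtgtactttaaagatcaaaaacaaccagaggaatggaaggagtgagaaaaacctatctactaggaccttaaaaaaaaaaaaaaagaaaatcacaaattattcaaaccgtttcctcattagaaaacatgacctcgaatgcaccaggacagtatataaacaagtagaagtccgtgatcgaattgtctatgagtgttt
In Ldhc these letters begin 61 and 47 bases before the start, and in Cox7b2 they begin 96 bases before it. The promoters of Rpl39l and Pdha2 hold none of the 4 motifs in these windows.

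The values are the authors' log2 values, in which a difference of 1 stands for a 2-fold change, and the level of a gene cannot be set against that of another probe set. A linear model of the 7 genotypes was fitted to all genes with limma, and genes were called at an adjusted p under 0.05 (Benjamini-Hochberg over 14746 genes). Of the 10 paralogs, 9 passed the filter on dim genes, and Pgk2, with a mean log2 level of 4.62 against a limit of 5.12, did not. Markers of pachytene spermatocytes other than the paralogs passed that filter for 17 of 18 genes on the array. Spermatid markers did so for 8 of 12, with a median log2 level of 5.32 over the list. All 12 Sertoli cell markers on the array passed it too, with a median log2 level of 9.26. In bulk RNA of this kind, fewer cells of a type and less RNA per cell cannot be told apart. The B6xBALB/C replicate 6 stood apart from the other arrays of its genotype: its pachytene marker mean was -0.65 log2 relative to all arrays, against 0.27 to 1.08 in the other 5. Paralog calls that changed without that array are given with and without it. It bears also on comparisons of other genotypes, since all arrays share 1 estimate of the spread. Leaving it out there was chosen after seeing the data, and that array was low in the paralogs themselves. Calls gained that way come from a smaller estimate of the spread and are no separate support. The orders of genotype means below use all arrays. Without replicate 6, B6xBALB/C moved up 1 place in the orders of Rpl39l and Cox7b2 and in no other order of the paralogs.

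Of the 10 paralogs, 8 were among the genes that varied most over the 23 arrays. Their ranges from the lowest to the highest array were 2.08 (Cox6b2) to 3.88 (Ldhc) on the log2 scale, which is above the ranges of 98.2% to 99.9% of the genes tested. The lowest array was B6xBALB/C replicate 6 in Ldhc (6.21), Cox7b2 (5.98), Cox6b2 (7.21) and Cox8c (6.20). The next lowest arrays of these genes were at 6.24, 6.25, 7.64 and 6.38. Ranges without replicate 6 were not ranked. Gapdhs, the glyceraldehyde-3-phosphate dehydrogenase of the sperm tail, stayed between 4.90 and 5.55 on every array, a range of 0.65 that lay above only 31.6% of genes. Pgk2, the testis phosphoglycerate kinase, lay between 4.06 and 5.44, a range of 1.38 that was not ranked, since Pgk2 did not pass the filter. At this age 8 of the 10 paralogs thus differed widely from array to array. Gapdhs and Pgk2 stayed dim, and of these Pgk2 had the wider range.

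**Figure D1:**
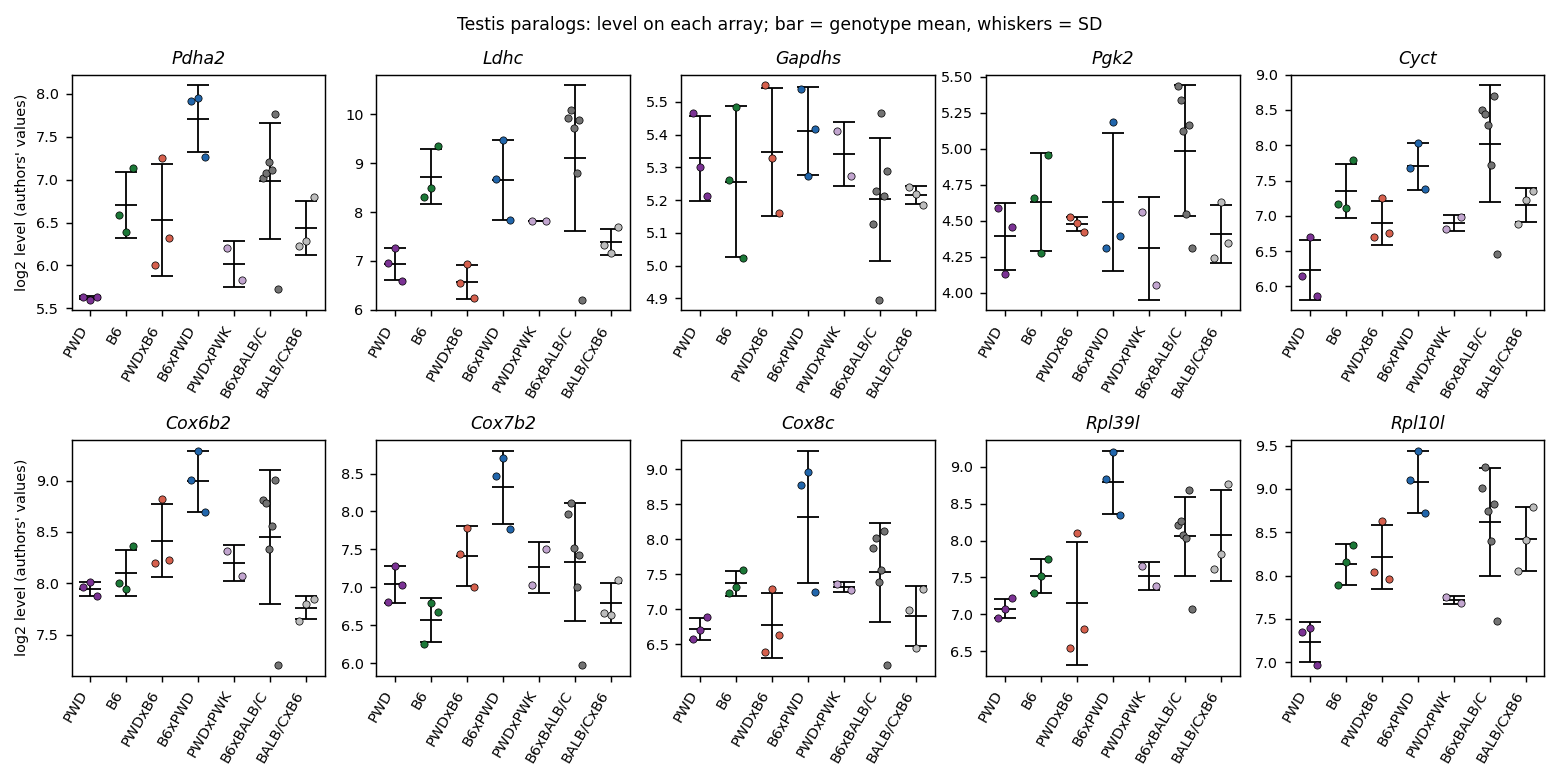
The log2 level of each paralog on every array (points), by genotype, with the genotype mean (bar) and SD (whiskers). B6xPWD has the highest mean in 7 of the 10 panels and B6xBALB/C in Ldhc, Cyct and Pgk2, and a single B6xBALB/C array lies far below its group in most panels.

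The clearest departure from the parents was in B6xPWD, the hybrid with a B6 mother. Of the 9 paralogs tested, 6 rose above the mid-parent value, which is the mean of PWD and B6: Pdha2, Rpl39l, Rpl10l, Cox7b2, Cox6b2 and Cox8c, by 0.97 to 1.54 on the log2 scale. Over all genes 7.79% were called higher in this comparison. In 5 of the 9 (Pdha2, Rpl39l, Rpl10l, Cox7b2 and Cox6b2) every B6xPWD array was above every parental array, against 7.49% of all genes. All 9 differences were positive, with a median of 1.28, against -0.03 over all genes tested. The reciprocal hybrid PWDxB6 showed 0 called paralogs against the same mid-parent, and against B6xPWD it was lower in all 9, with Rpl39l and Cox8c called.

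Rpl39l encodes the testis form of a small protein at the exit tunnel of the large ribosomal subunit. Its log2 level was 8.83, 9.20 and 8.34 in B6xPWD, 6.54, 8.10 and 6.81 in PWDxB6, 6.95, 7.06 and 7.21 in PWD and 7.29, 7.52 and 7.76 in B6. All B6xPWD arrays were above all arrays of these 3 other genotypes, and PWDxB6 replicate 2 lay well above its companions. Rpl39l was higher in B6xPWD than the mid-parent by 1.49 (SE 0.31, limma adjusted p = 0.00457), which is 2.81 times its level. PWDxB6 was below B6xPWD by -1.64 (SE 0.35, limma adjusted p = 0.0177), a ratio of 0.32, and differed from the mid-parent by -0.15 (95% interval -0.79 to 0.48). The order of genotype means ran from PWD (7.08 ± 0.13, SD, n = 3) through PWDxB6, PWDxPWK, B6, B6xBALB/C and BALB/CxB6 to B6xPWD (8.79 ± 0.43, SD, n = 3), and each pair of neighbours in it had overlapping arrays.

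Rpl10l, a retroposed copy of an X-linked gene of the large ribosomal subunit, took log2 levels of 9.11, 9.43 and 8.72 in B6xPWD, 8.04, 8.63 and 7.96 in PWDxB6, 7.34, 7.39 and 6.97 in PWD and 7.89, 8.15 and 8.35 in B6. The hybrid B6xPWD again lay above the other 3 on every array, and PWD lay below B6 on every array. Rpl10l was above the mid-parent by 1.40 in B6xPWD (SE 0.26, limma adjusted p = 0.00308), or 2.64 times. In PWDxB6 it stood 0.53 above the mid-parent, which did not pass the test (limma adjusted p = 0.434), and -0.87 against B6xPWD (SE 0.30, limma adjusted p = 0.107), although these groups did not overlap. Its order began with PWD (7.24 ± 0.23, SD, n = 3) and PWDxPWK (7.72 ± 0.05, SD, n = 2), both clear of their upper neighbour, and the 5 genotypes from B6 upward overlapped with their neighbours.

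Pdha2 is the retroposed, testis form of the E1 alpha subunit of pyruvate dehydrogenase, which feeds pyruvate into the citric acid cycle. The B6xPWD arrays read 7.92, 7.95 and 7.26, the PWDxB6 arrays 6.01, 7.25 and 6.32, the PWD arrays 5.64, 5.60 and 5.64 and the B6 arrays 6.59, 6.39 and 7.13 (log2 levels). The PWD pools were nearly identical and lowest, and B6xPWD was highest, its lowest pool just above the highest PWDxB6 pool. Pdha2 rose by 1.54 above the mid-parent in B6xPWD (SE 0.30, limma adjusted p = 0.00358), 2.91 times its level and the widest called difference among the paralogs there. Against B6xPWD, PWDxB6 was at -1.18 (SE 0.35, limma adjusted p = 0.0646), which did not pass the test. In the order of means PWD (5.63 ± 0.02, SD, n = 3) and PWDxPWK (6.02 ± 0.27, SD, n = 2) stood below all arrays of the next genotype, and BALB/CxB6, PWDxB6, B6, B6xBALB/C and B6xPWD (7.71 ± 0.39, SD, n = 3) followed with overlaps.

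Ldhc, the sperm lactate dehydrogenase, had the widest range of the 10 paralogs and another order. It read 8.68, 9.46 and 7.83 in B6xPWD, 6.55, 6.94 and 6.24 in PWDxB6, 6.96, 7.26 and 6.60 in PWD and 8.30, 8.50 and 9.36 in B6 (log2 levels). In this gene B6xPWD was like B6 and PWDxB6 was like PWD, so that these genotypes fell into a high and a low pair with no overlap between the pairs. PWDxB6 differed from B6xPWD by -2.09 (SE 0.64, 95% interval -3.40 to -0.77), a ratio of 0.24 that did not pass the test across all genes (limma adjusted p = 0.072). Neither hybrid was called against the mid-parent: B6xPWD stood at 0.83 (SE 0.55, limma adjusted p = 0.305) and PWDxB6 at -1.25 (SE 0.55, limma adjusted p = 0.366). Its highest genotype was B6xBALB/C, with a lowest array of 6.21, a median of 9.81 and a highest of 10.09. From the lowest, the order was PWDxB6 (6.58 ± 0.35, SD, n = 3), PWD, BALB/CxB6, PWDxPWK, B6xPWD, B6 and B6xBALB/C (9.10 ± 1.49, SD, n = 6). PWDxPWK, at 7.81 on both arrays, lay clear of its neighbours, and the other neighbouring pairs overlapped.

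Cyct, the testis form of cytochrome c, which carries electrons to cytochrome c oxidase, correlated with Ldhc at r = 0.90 over the 23 arrays. The genotype orders of the 2 genes differed. Against the mid-parent PWDxB6 stood at 0.10 (limma adjusted p = 0.937) in Cyct. Its log2 level was 7.68, 8.04 and 7.38 in B6xPWD, 6.70, 7.25 and 6.75 in PWDxB6, 6.15, 6.70 and 5.86 in PWD and 7.16, 7.10 and 7.79 in B6. PWD was lowest on every array among these 4 genotypes apart from a near tie of its highest array with the lowest of PWDxB6. B6xPWD stood 0.90 above the mid-parent (SE 0.32, limma adjusted p = 0.0625) and PWDxB6 at -0.80 against B6xPWD (SE 0.38, limma adjusted p = 0.223), neither of which passed the test. The order ran from PWD (6.24 ± 0.43, SD, n = 3), which did not overlap with the next, through PWDxPWK, PWDxB6, BALB/CxB6, B6 and B6xPWD to B6xBALB/C (8.02 ± 0.83, SD, n = 6), with overlaps between these neighbours.

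The other 3 respiratory paralogs are subunits of cytochrome c oxidase, the enzyme that passes electrons to oxygen. Cox7b2 read 8.47, 8.71 and 7.77 in B6xPWD, 7.44, 7.79 and 7.0 in PWDxB6, 6.80, 7.28 and 7.03 in PWD and 6.25, 6.80 and 6.68 in B6 (log2 levels). It was the only one of the 9 tested paralogs other than Gapdhs with a higher mean in PWD than in B6, and B6 was its lowest genotype (6.57 ± 0.29, SD, n = 3). Cox7b2 rose by 1.51 above the mid-parent in B6xPWD (SE 0.31, limma adjusted p = 0.00494), 2.85 times its level. In PWDxB6 it stood 0.60 above the mid-parent (SE 0.31, limma adjusted p = 0.457) and at -0.91 against B6xPWD (SE 0.36, limma adjusted p = 0.157). Neighbours in its order (B6, BALB/CxB6, PWD, PWDxPWK, B6xBALB/C, PWDxB6, B6xPWD) all overlapped.

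Cox8c read 8.78, 8.95 and 7.24 in B6xPWD, 6.38, 7.29 and 6.64 in PWDxB6, 6.57, 6.70 and 6.88 in PWD and 7.23, 7.31 and 7.57 in B6 (log2 levels). B6xPWD replicate 3 lay far below its companions, at the level of B6, and within the range of PWDxB6. Cox8c was called higher in B6xPWD than the mid-parent, by 1.28 (SE 0.34, limma adjusted p = 0.0183), and called lower in PWDxB6 than in B6xPWD, by -1.55 (SE 0.40, limma adjusted p = 0.037). Its genotype order was PWD, PWDxB6, BALB/CxB6, PWDxPWK, B6, B6xBALB/C and B6xPWD, from 6.72 ± 0.16 (SD, n = 3) to 8.32 ± 0.94 (SD, n = 3), with overlap between all neighbours.

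Cox6b2 varied least of these 8 genes and read 9.0, 9.29 and 8.69 in B6xPWD, 8.20, 8.82 and 8.22 in PWDxB6, 7.96, 8.01 and 7.88 in PWD and 8.0, 7.95 and 8.36 in B6 (log2 levels). Both parents were low and close to each other, and B6xPWD was above both on every array. Cox6b2 rose by 0.97 above the mid-parent in B6xPWD (SE 0.25, limma adjusted p = 0.0162), and in PWDxB6 it stood 0.39 above it (SE 0.25, limma adjusted p = 0.572). The lowest genotype was BALB/CxB6 (7.76 ± 0.11, SD, n = 3), below PWD on every array, and the others overlapped with their neighbours in the order PWD, B6, PWDxPWK, PWDxB6, B6xBALB/C and B6xPWD.

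Gapdhs and Pgk2 had 0 called differences in the 8 comparisons. The Gapdhs difference was -0.06 between the reciprocal hybrids (95% interval -0.34 to 0.21) and 0.12 for B6xPWD against the mid-parent (95% interval -0.12 to 0.36), with means from 5.20 ± 0.19 (SD, n = 6, B6xBALB/C) to 5.41 ± 0.13 (SD, n = 3, B6xPWD) and overlap between all neighbours. Pgk2, in a fit without the filter, stood at -0.15 between the reciprocal hybrids (SE 0.25, limma adjusted p = 0.775) and 0.12 for B6xPWD against the mid-parent (SE 0.22, limma adjusted p = 0.762). The widest Pgk2 difference was -0.58 for BALB/CxB6 minus B6xBALB/C (SE 0.22, limma adjusted p = 0.249). Over the 23 arrays Pgk2 correlated with Ldhc and Cyct at r = 0.75 each. Pgk2 means ran from 4.31 in PWDxPWK to 4.99 in B6xBALB/C, and all neighbours overlapped.

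**Figure D2:**
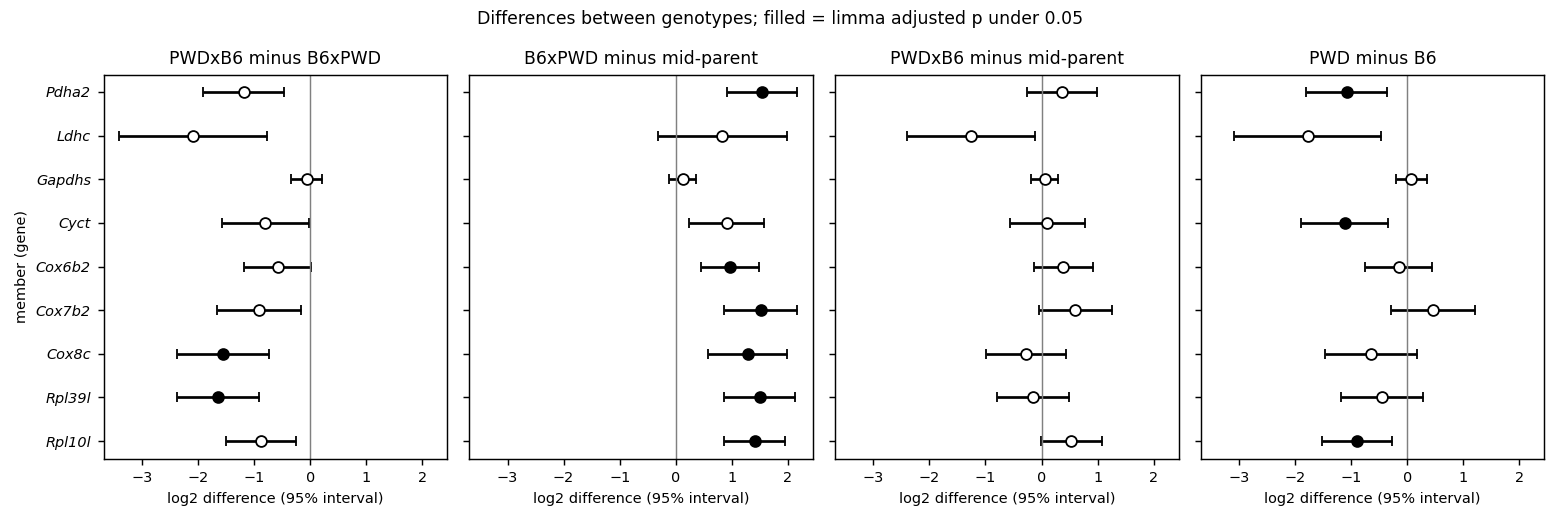
Log2 differences (points) with 95% intervals (lines) of the 9 tested paralogs in 4 comparisons, filled where the limma adjusted p is under 0.05. In B6xPWD minus mid-parent 6 genes are filled and all 9 points lie above 0, and in PWDxB6 minus mid-parent 0 are filled.

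Between the reciprocal hybrids, 2 of 9 paralogs were called lower in PWDxB6 and 0 higher, where 1.51% of all genes were called lower. The median of the 9 differences was -0.91, against 0.03 over all genes. In 5 of the 9 (Pdha2, Ldhc, Rpl39l, Rpl10l and Cyct) all 3 PWDxB6 arrays were below all 3 B6xPWD arrays, and 10.9% of all genes had such an order. When B6xBALB/C replicate 6 was left out, 8 of 9 were called lower, all except Gapdhs, where 3.41% of all genes were called lower: Ldhc at an adjusted p of 0.000767 (limma), Pdha2 at 0.00965, Rpl10l at 0.0207, Cox7b2 at 0.0395, Cyct at 0.0457 and Cox6b2 at 0.0499, with the same differences as before. B6xBALB/C replicate 6 belongs to neither hybrid and was left out after seeing the data, so the added calls are no separate support. With all arrays the calls of Rpl39l and Cox8c rested on single pools. Rpl39l lost its call without PWDxB6 replicate 1 (-1.34, limma adjusted p = 0.108), PWDxB6 replicate 3 (-1.47, limma adjusted p = 0.0926) or B6xPWD replicate 2 (-1.44, limma adjusted p = 0.107). Cox8c lost it without any of PWDxB6 replicates 1 (-1.36, limma adjusted p = 0.157) and 3 (-1.49, limma adjusted p = 0.13) and B6xPWD replicates 1 (-1.33, limma adjusted p = 0.093) and 2 (-1.24, limma adjusted p = 0.186). Without PWDxB6 replicate 2, the pool with the highest mean paralog level of its genotype, Pdha2 was called as well (-1.54, limma adjusted p = 0.018).

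The 6 calls of B6xPWD against the mid-parent were sensitive to a single array of that hybrid. Without B6xPWD replicate 2, Pdha2 and Rpl10l remained called, and Rpl39l (1.29, limma adjusted p = 0.0516), Cox7b2 (1.31, limma adjusted p = 0.0527), Cox6b2 (0.82, limma adjusted p = 0.106) and Cox8c (0.96, limma adjusted p = 0.14) did not pass. Cox8c was lost also without B6xPWD replicate 1 (1.05, limma adjusted p = 0.0822). Every one of these differences stayed positive. With B6xBALB/C replicate 6 left out, Cyct (0.90, limma adjusted p = 0.00521) and Ldhc (0.83, limma adjusted p = 0.0462) were called as well, which made 8 of 9, where 9.74% of all genes were called higher.

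For PWDxB6 against the mid-parent, limma called 0 of 9 paralogs, and 0.671% of all genes were called. At an unadjusted p under 0.05 there was 1 paralog, Ldhc, among 1764 genes. Ldhc was called lower without B6xBALB/C replicate 6 (-1.25, limma adjusted p = 0.0265), where 0.434% of all genes were called lower. The comparison shares the parental arrays with that of B6xPWD. Set side by side, Pdha2 stood at 0.36 in PWDxB6 and 1.54 in B6xPWD, Rpl10l at 0.53 and 1.40, Cox7b2 at 0.60 and 1.51, and Rpl39l at -0.15 and 1.49 above the mid-parent.

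The parents differed in 3 of 9 paralogs, all lower in PWD than in B6: Pdha2 by -1.08 (SE 0.35, limma adjusted p = 0.0329), Rpl10l by -0.90 (SE 0.30, limma adjusted p = 0.0425) and Cyct by -1.11 (SE 0.38, limma adjusted p = 0.0409). Over all genes 8.04% were called lower in PWD. Ldhc showed the widest difference, at -1.78, without passing (SE 0.64, limma adjusted p = 0.0544). These calls were close to the threshold: with any 1 of the 6 parental arrays left out, 0 or 1 of the paralogs remained called. The smallest difference was then -0.87 for Pdha2 (without B6 replicate 3, limma adjusted p = 0.147), -0.76 for Rpl10l (without PWD replicate 3, limma adjusted p = 0.154) and -0.90 for Cyct (without B6 replicate 3, limma adjusted p = 0.169). Cox7b2 went the other way, with 0.46 (SE 0.36, limma adjusted p = 0.41). In the fit without B6xBALB/C replicate 6, 4 paralogs were called lower, the fourth being Ldhc (limma adjusted p = 0.000441), where 9.56% of all genes were called lower. Pachytene markers differed in the same direction: 15 of 17 were lower in PWD and 4 of them were called, with a median of -0.60. With the mean of these markers as a covariate, 0 paralogs were called lower in PWD, where 8.55% of all genes were called lower. Pdha2 then stood at -0.32, Rpl10l at -0.11, Cyct at -0.07 and Ldhc at 0.07. In that fit 2 paralogs were called higher in PWD, Cox7b2 at 1.41 and Cox6b2 at 0.60, where 11.3% of all genes were called higher.

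In the control crosses the calls depended on which B6xBALB/C arrays were kept. With all arrays, BALB/CxB6 minus B6xBALB/C called 0 of 9 paralogs with limma, where 0.441% of all genes were called. An unadjusted p under 0.05 was reached by 3 paralogs and by 2095 of all 14746 genes. With B6xBALB/C replicates 1 to 3 only, 6.24% of all genes were called lower in BALB/CxB6. With B6xBALB/C replicates 4 to 6 only, 0 genes were called higher and 0 lower. Without B6xBALB/C replicate 6, 5 paralogs were called lower in BALB/CxB6, where 5.22% of all genes were: Ldhc (-2.29, limma adjusted p = 1.36e-05), Cyct (-1.18, limma adjusted p = 0.000503), Cox6b2 (-0.94, limma adjusted p = 0.000214), Cox7b2 (-0.81, limma adjusted p = 0.0316) and Pdha2 (-0.80, limma adjusted p = 0.0336). The ribosomal pair was not among them. Pachytene markers differed with them: 16 of 17 were lower in BALB/CxB6, with a median of -0.90 and 1 called, and without that array with a median of -1.18 and 12 called. With the marker mean as a covariate and all arrays kept, these 5 paralogs stood on the other side of 0. Ldhc was at 0.36, Cyct at 0.30, Cox6b2 at 0.16, Cox7b2 at 0.51 and Pdha2 at 0.30. Rpl39l stood at 0.78 and Rpl10l at 0.68, and 3 of the 9 paralogs had an unadjusted p under 0.05. No paralog was called by limma, but in that fit only 0.00678% of all genes were called higher and 0% lower. The lack of calls there thus says little about the paralogs. With all arrays Ldhc stood at -1.71 (SE 0.55, limma adjusted p = 0.124), Cyct at -0.87 (SE 0.32, limma adjusted p = 0.198) and Rpl39l at 0.01 (SE 0.31, limma adjusted p = 0.994). Without that array the Ldhc value of -2.29 in this cross within a subspecies stood beside -2.09 between PWDxB6 and B6xPWD.

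The difference between the reciprocal differences was tested directly. As B6 father minus B6 mother, PWDxB6 minus B6xPWD less BALB/CxB6 minus B6xBALB/C called 0 of 9 paralogs, with 2.68% of all genes called, and Rpl39l alone had an unadjusted p under 0.05 among 2751 genes. Rpl39l stood at -1.66 (SE 0.47, limma adjusted p = 0.0592), since its reciprocal difference was -1.64 in the PWD cross and 0.01 in the BALB/C cross. It was called without PWDxB6 replicate 2 (-2.13, limma adjusted p = 0.00889), B6xPWD replicate 3 (-1.88, limma adjusted p = 0.047), B6xBALB/C replicate 5 (-1.78, limma adjusted p = 0.0455), B6xBALB/C replicate 6 (-1.46, limma adjusted p = 0.0423, where 2.28% of all genes were called lower) or BALB/CxB6 replicate 1 (-1.88, limma adjusted p = 0.039). Over 28 alternative fits of all kinds it was called in only 10, with a limma adjusted p from 0.00111 to 0.222. For Ldhc the value was -0.37 (95% interval -2.12 to 1.37), and for Cyct 0.07 (95% interval -0.96 to 1.09), intervals wide enough to hold differences in both directions. Without B6xBALB/C replicate 6 these values were 0.20 and 0.38, so that Ldhc turned, and neither was called. With the pachytene covariate Ldhc (-0.89, limma adjusted p = 0.0213), Rpl39l (-1.85, limma adjusted p = 0.00483), Rpl10l (-0.90, limma adjusted p = 0.0138) and Cox8c (-1.18, limma adjusted p = 0.0467) were called lower, where 3.34% of all genes were. Without replicate 6 that covariate left Rpl39l and Rpl10l called.

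Hybrids were also compared with a cross of the same mother strain. PWDxB6 minus PWDxPWK called 0 of 9 paralogs with limma, against 1.43% of all genes. At an unadjusted p under 0.05 there were 0 paralogs, against 1662 of all 14746 genes. Differences ran from -1.23 (Ldhc) to 0.51 (Pdha2). B6xPWD minus B6xBALB/C called 0 as well, against 9.3% of all genes. At an unadjusted p under 0.05 there were 5 of the 9 paralogs, against 3740 of all 14746 genes. Cox7b2 was nearest to the threshold (0.98, SE 0.31, limma adjusted p = 0.0503). Without B6xBALB/C replicate 6, Cox7b2 was called higher in B6xPWD (0.71, limma adjusted p = 0.0451), where 6.1% of all genes were called higher. Ldhc was called lower (-1.02, limma adjusted p = 0.0258), where 5.59% were called lower. The direction of Ldhc depended on the B6xBALB/C arrays kept: it stood at -1.25 with replicates 1 to 3 only, at 0.36 with replicates 4 to 6 only, and at 0.43 with the pachytene covariate.

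The paralogs rose and fell together from pool to pool. Taken relative to the average of the 23 arrays, the mean of the 9 tested paralogs was -0.71, -0.54 and -0.77 in PWD, -0.25, -0.11 and 0.20 in B6, -0.54, 0.13 and -0.57 in PWDxB6 and 0.87, 1.12 and 0.27 in B6xPWD (log2). It was -0.21 and -0.27 in PWDxPWK, -0.40, -0.36 and 0.07 in BALB/CxB6, and -0.95 at the lowest and 0.82 at the highest array of B6xBALB/C. PWDxB6 replicate 2 and B6xPWD replicate 3 were the pools nearest to each other between the reciprocal hybrids. Each of 8 paralogs correlated with the mean of the others at r = 0.70 (Cox7b2) to 0.91 (Pdha2) over 23 arrays, and Gapdhs at -0.18. These are descriptions, since the arrays of a genotype share it and all genes of an array share its pool.

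**Figure D3:**
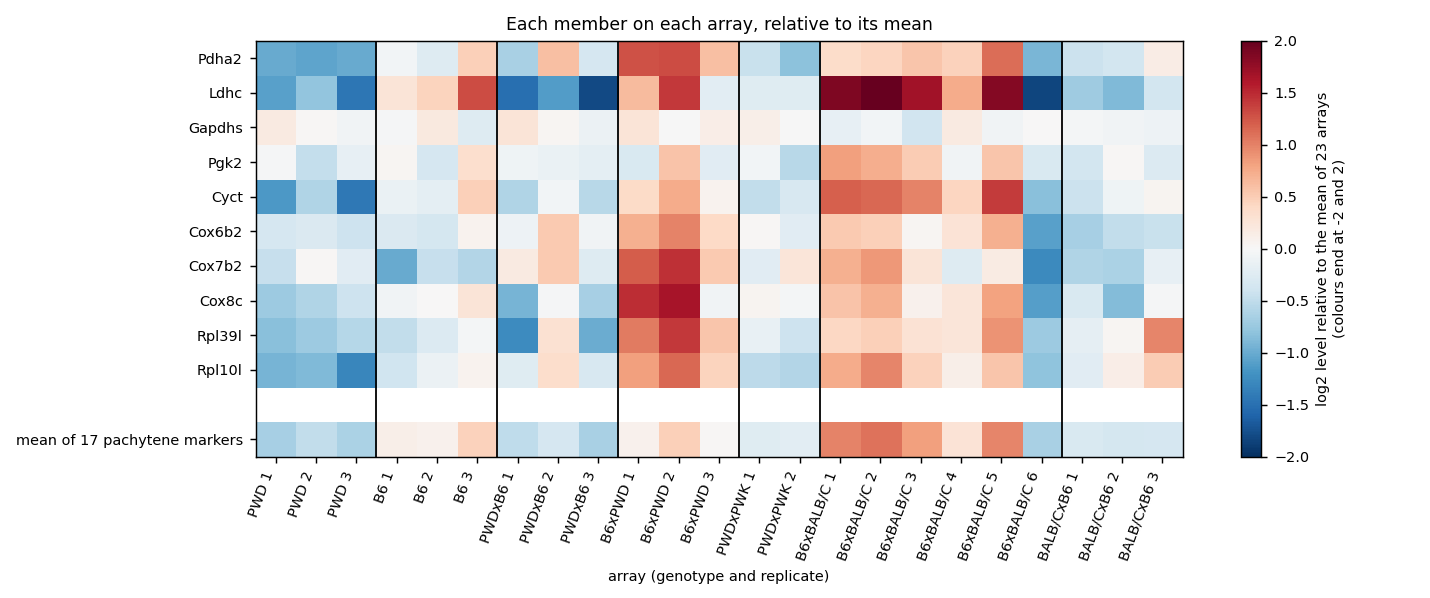
Each paralog (rows) on each of 23 arrays (columns, grouped by genotype), coloured by its log2 level relative to its mean over all arrays, with the mean of 17 pachytene markers in the lowest row. B6xPWD replicates 1 and 2 are high in 8 paralogs other than Gapdhs and Pgk2 while their pachytene mean is 0.09 and 0.47, and B6xBALB/C replicate 6 is low in those 8.

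Pachytene markers moved with several of these genes. The mean of 17 pachytene markers, relative to all arrays, was -0.67 to -0.50 in PWD, 0.09 to 0.46 in B6, -0.64 to -0.34 in PWDxB6, 0.02 to 0.47 in B6xPWD, -0.24 to -0.21 in PWDxPWK, -0.35 to -0.31 in BALB/CxB6 and -0.65 to 1.08 in B6xBALB/C (log2). All 17 were lower in PWDxB6 than in B6xPWD, with a median of -0.54 and 0 called by limma. An unadjusted p under 0.05 was reached by 7 of them and by 3112 of all 14746 genes. Nearest to a call was Piwil1, a piRNA-binding protein of spermatocytes (-1.77, limma adjusted p = 0.0684). In the fit without B6xBALB/C replicate 6, 5 of the 17 were called lower, where 3.41% of all genes were called lower. Ldhc (r = 0.97) and Cyct (r = 0.94) followed this mean closely over the 23 arrays, and within genotypes, after removal of the genotype means, at 0.97 and 0.94. Without the 2 arrays farthest from the median of the marker mean r was 0.97 and 0.92, and Spearman's rho was 0.97 and 0.90. Other paralogs followed it less over all arrays: Rpl10l at r = 0.73, Cox8c and Pdha2 at 0.72, Cox6b2 at 0.66, Rpl39l at 0.63 and Cox7b2 at 0.47, with Gapdhs at -0.38. Without the 2 farthest arrays Cox7b2 fell to 0.34. Within genotypes Cox7b2 and Cox6b2 reached 0.88 and 0.89, and Rpl10l 0.88. These values within genotypes rest in part on B6xBALB/C replicate 6, without which they were 0.73, 0.63 and 0.73, with 0.89 for Ldhc, 0.82 for Cyct and 0.41 for Pdha2.

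**Figure D4:**
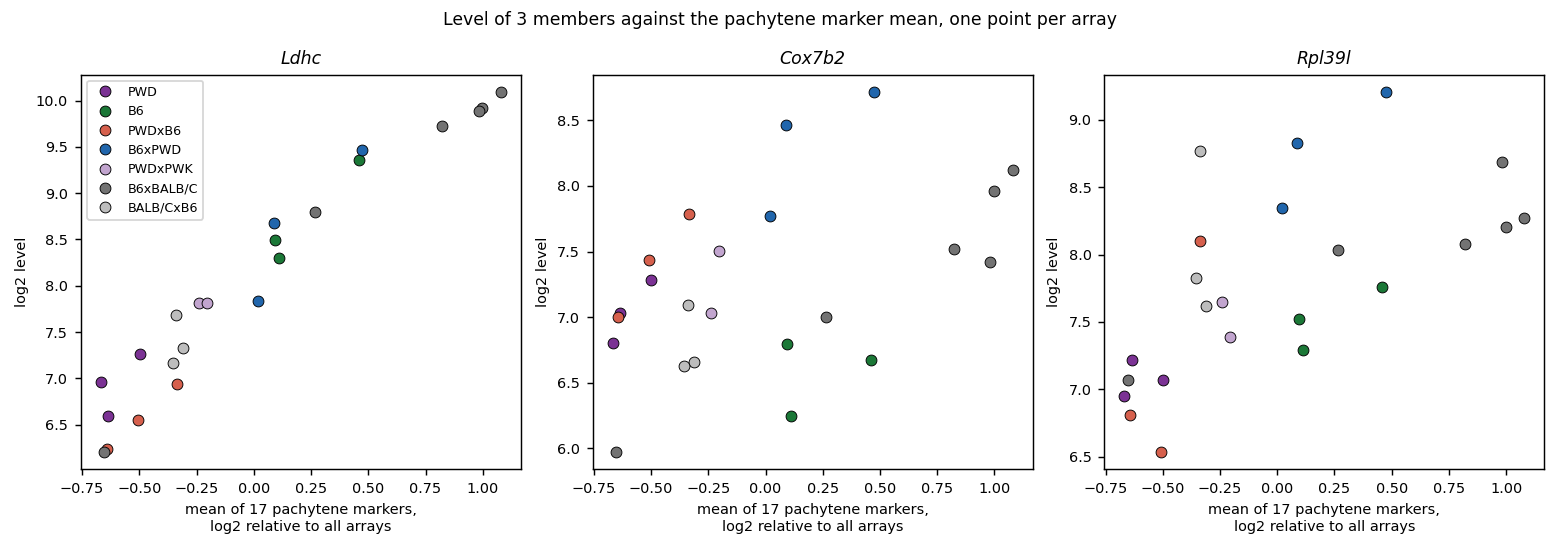
Log2 level of Ldhc, Cox7b2 and Rpl39l (vertical axes) against the mean of 17 pachytene markers (horizontal axes, log2 relative to all arrays), with 1 point per array coloured by genotype. Ldhc lies along a single line (r = 0.97), while for Cox7b2 (r = 0.47) the 3 B6xPWD arrays lie above the 3 B6 arrays over a like range of marker means.

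With that marker mean as a covariate in the fit, B6xPWD minus mid-parent kept the same 6 paralogs as higher, where 4.96% of all genes were called higher: Pdha2 (1.19), Rpl39l (1.17), Cox7b2 (1.07), Rpl10l (1.04), Cox8c (0.87) and Cox6b2 (0.62). Ldhc then stood at -0.03 and Cyct at 0.42, neither called. Without B6xBALB/C replicate 6, 5 of these 6 were called with the covariate, where 1.51% of all genes were called higher, and Cox8c was not (0.86, limma adjusted p = 0.086). Between the reciprocal hybrids 0 of 9 were called, with 0.556% of all genes called lower, Rpl39l standing at -1.07 (SE 0.30, limma adjusted p = 0.0897) and Cox8c at -0.82 (SE 0.29, limma adjusted p = 0.183), and Cox7b2, Cox6b2 and Cyct lay between -0.12 and 0.07. PWDxB6 against the mid-parent had 4 called higher (Cox7b2, 0.95; Rpl10l, 0.82; Cox6b2, 0.67; Cyct, 0.49), where 2.69% of all genes were called higher, and 1 called lower (Ldhc, -0.57), where 1.38% were called lower. B6xPWD minus B6xBALB/C had 6 called higher, with Cox7b2 at 1.43, where 9.03% were called higher. Without replicate 6 there were 4 (Cox7b2, Rpl10l, Cox6b2 and Cox8c), where 2.78% were called higher. With all arrays Cox7b2 then rose in PWD against B6 as well, by 1.41 (SE 0.21, limma adjusted p = 5.15e-05), where 11.3% of all genes were called higher. The marker mean is itself a measured value that differs between genotypes, so these are values at equal marker means and not values at equal cell numbers.

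Markers of other cells also moved with the comparison of B6xPWD and the mid-parent. Called lower were 4 of 12 Sertoli cell markers (Wt1, -0.58; Amh, -0.56), 4 of 9 peritubular and stromal markers (Col1a1, -0.70), 4 of 7 endothelial markers (Cdh5, -0.68) and 1 of 4 Leydig cell markers (Cyp11a1, -0.64), while 6.69% of all genes were called lower. Over all genes 7.79% were called higher. Of 15 early meiotic markers 6 rose, Sycp3 of the synaptonemal complex by 0.87 and Tex101 by 0.72, and of 17 pachytene markers 1 rose (Tbpl1, 0.40). Macrophage, red blood cell and spermatid markers had 0 called by limma in this comparison, with 0, 0 and 1 at an unadjusted p under 0.05. Of all 14746 genes 4664 were under that limit. Of 11 spermatogonial markers 1 rose (Sohlh2, 0.58). The Sertoli cell mean lay between -0.14 and -0.06 in B6xPWD, -0.02 and 0.14 in PWD and 0.05 and 0.22 in B6 (log2). The peritubular mean lay between -0.24 and -0.10 in B6xPWD, 0.07 and 0.22 in PWD and 0.01 and 0.30 in B6, the endothelial mean between -0.40 and 0.04, 0.05 and 0.21, and 0.19 and 0.47, and the Leydig cell mean between -0.52 and -0.15, -0.08 and 0.13, and 0.16 and 0.59. The early meiotic mean lay between 0.14 and 0.22 in B6xPWD, -0.20 and 0.04 in PWD and -0.49 and -0.13 in B6. The part of these markers in the paralog differences was not tested, beyond the pachytene covariate.

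Between the reciprocal hybrids fewer of these markers were called. Of the early meiotic list Meioc (-0.59) and Tex101 (-0.75) were lower in PWDxB6, where 1.51% of all genes were called lower. Of the peritubular list Des (0.55) and Cnn1 (0.56) were higher, where 1.33% of all genes were called higher. In the other marker lists 0 were called.

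The ubiquitous counterparts were measured on the same arrays for 7 of 11 genes, and Pgk1, Rpl39, Rpl10 and Gapdh had no probe set with a single symbol. In B6xPWD against the mid-parent 2 of 7 rose: Cox7b (0.60, SE 0.14, limma adjusted p = 0.00943), an X-linked oxidase subunit, and Cox8a (0.48, SE 0.16, limma adjusted p = 0.0448). Over all genes 7.79% were called higher there. Cox7b read 6.47, 6.90 and 6.38 in B6xPWD, 6.03, 5.87 and 6.16 in PWD and 6.09, 5.81 and 5.93 in B6 (log2 levels), so that B6xPWD lay above both parents on every array. Pdha1, the X-linked form of the enzyme subunit that Pdha2 replaces, stood at -0.04 (95% interval -0.21 to 0.13), against 1.54 for Pdha2. Ldha stood at -0.09 (SE 0.22, limma adjusted p = 0.79), Ldhb at 0.45 (SE 0.17, limma adjusted p = 0.0706), Cycs at -0.37 (SE 0.24, limma adjusted p = 0.295) and Cox6b1 at 0.42 (SE 0.14, limma adjusted p = 0.0505).

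Between the reciprocal hybrids limma called 0 of these 7 counterparts, with 4 at an unadjusted p under 0.05. Of all 14746 genes 3112 were under that limit. Pdha1 stood at 0.28 (95% interval 0.08 to 0.48) and Cycs at 0.60 (95% interval 0.02 to 1.19), with higher means in PWDxB6, whereas their testis forms Pdha2 and Cyct had lower means there. Ldhb was the 1 counterpart that fell in PWD against B6 (-0.78, SE 0.19, limma adjusted p = 0.00631), and Cox7b the 1 that was called higher in B6xPWD than in B6xBALB/C (0.46, limma adjusted p = 0.0413), and it was called without B6xBALB/C replicate 6 too (0.49, limma adjusted p = 0.0279). Ldha was then called lower (-0.62, limma adjusted p = 0.0149). In BALB/CxB6 minus B6xBALB/C Ldha had a lower mean in BALB/CxB6, as Ldhc did (-0.82, limma adjusted p = 0.067). Without B6xBALB/C replicate 6 it was called there (-1.01, limma adjusted p = 0.000167), where 5.22% of all genes were called lower. The test between the reciprocal differences without that array called Ldha higher (1.02, limma adjusted p = 0.0213), where 1.57% of all genes were called higher. With all arrays, 8.04% of all genes were called lower in PWD than in B6, and 5.77% higher in B6xPWD than in B6xBALB/C. No test was made of the difference between a paralog and its counterpart, which are read by different probe sets.

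**Figure D5:**
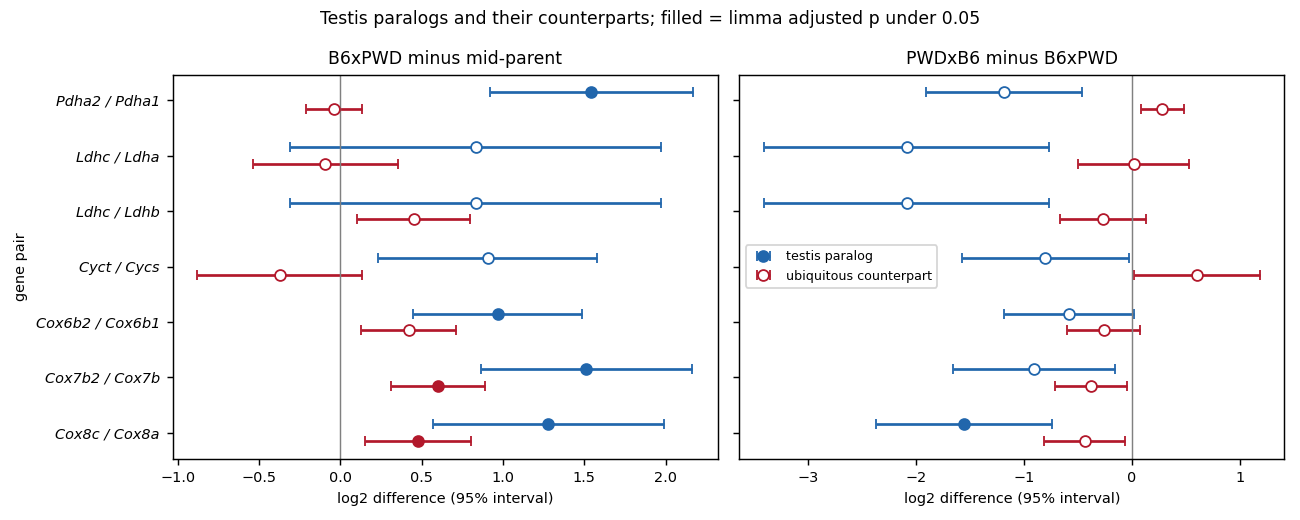
Log2 differences with 95% intervals of testis paralogs (blue) and their measured ubiquitous counterparts (red), filled where the limma adjusted p is under 0.05, for B6xPWD minus mid-parent (left) and PWDxB6 minus B6xPWD (right). On the left the 4 called paralogs shown lie between 0.97 and 1.54 and the called counterparts Cox7b and Cox8a at 0.60 and 0.48, and on the right Pdha1 and Cycs lie above 0 while every paralog lies below it.

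Among other genes of the same pathways, a list of further oxidase subunits and genes of the complex before the oxidase held the largest share of called genes. Ubiquitous cytochrome c (Cycs) was not in this list and stood at -0.37 in B6xPWD minus mid-parent, not called. In B6xPWD 9 of 11 genes rose above the mid-parent, such as Cox7a2 (0.97), Cox7a2l (0.84) and Cox6c (0.75) of the oxidase and Cyc1 (0.43) of the complex before it, with a list median of 0.67. Over all genes 7.79% were called higher in this comparison. Between the reciprocal hybrids 4 of 11 were lower in PWDxB6: Cox5a (-0.95), Cox6c (-0.92), Cox7a2l (-0.67) and Cox4i1 (-0.63), and all 11 differences were negative. There 1.51% of all genes were called lower. Against B6xBALB/C 8 of the 11 were higher in B6xPWD, with 5.77% of all genes called higher, and also 8 without B6xBALB/C replicate 6. In the test between the reciprocal differences 6 of 11 were lower, with 1.88% of all genes called lower. That count depended on BALB/CxB6 replicate 3, where the list mean was 0.62 against -0.06 and -0.01 on the other BALB/CxB6 arrays: without it 1 of 11 was called, with 0.319% of all genes called lower, and all 11 differences stayed negative.

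The other pathways moved less, and 7.79% of all genes were called higher in B6xPWD against the mid-parent. Of 9 genes of the pyruvate dehydrogenase complex and its regulators and carriers, 4 rose in B6xPWD against the mid-parent: Pdhb (0.52), Dld (0.51), Dlat (0.36) and Pdhx (0.28), which are structural parts of the complex. Of 10 ubiquitous glycolytic genes 1 rose, Aldoc (0.46), with a list median of -0.09. Of 17 other testis paralogs and retrogenes tested, 5 rose there, among them Slc25a31 (0.78), the germ cell carrier that exchanges ADP and ATP across the mitochondrial membrane, Taf7l (0.78), a transcription factor subunit, Tktl1 (0.61), a transketolase relative, and Tuba3a (0.56), a tubulin. In these 3 lists 0 genes were called between the reciprocal hybrids with limma, and 3, 4 and 6 genes had an unadjusted p under 0.05. Of all 14746 genes 3112 were under that limit.

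The genes whose levels were most like the mean of the 9 paralogs over the 23 arrays, other than the paralogs, were Ddt (r = 0.95), Rangrf, Cntd1, Bscl2 (each r = 0.94) and Morn5 (r = 0.93). Within genotypes their r was 0.88 to 0.94, and 0.69 to 0.85 without B6xBALB/C replicate 6.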

How the data were processed

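Per the labels' protocols, biotin-labelled total RNA of 23 pools was read on Affymetrix Mouse Gene 1.0 ST arrays. The authors deposited log2 values for 25690 probe sets. The base was taken from their range (1.17 to 13.96), and how background was corrected and arrays were normalized is not given in the sources used here. Array medians ran from 6.13 to 6.28. No scanner files were analysed here, and strain differences under the probes were not analysed.

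Through the platform annotation, 20777 probe sets had 1 gene symbol, 232 several and 4681 none, and the latter kinds stayed unnamed. All 10 paralogs matched RefSeq (GRCm38.p6) by Entrez ID. For 564 genes with several probe sets the one with the highest mean was used. A filter removed the dimmest 25% of genes (mean log2 below 5.12) and kept 14746.

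With R 4.3.3 and limma 3.58.1, 7 genotype means were estimated from the 23 arrays in 1 linear model (no trend, 16 residual degrees of freedom) and tested on simulated data. It gave 8 comparisons, with p-values adjusted by Benjamini-Hochberg over all genes tested. Named were all paralogs and measured counterparts, of other lists the 4 genes with the smallest adjusted p in PWDxB6 minus B6xPWD and in B6xPWD minus mid-parent, and the 5 genes most like the paralog mean. The paralogs, lists and tests were chosen with earlier results of these data known. Alternatives were other filters, scaling, variances, weights, a replicate block, a pachytene covariate, subsets of arrays and each array left out. Promoters and motifs were read with Python 3.11.15 from RefSeq sequence of the reference strain, and figures were drawn with matplotlib 3.10.9.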

Additional observations from a re-analysis of the deposited data

Results flagged for a closer look

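In B6xBALB/C, the genotype with 6 arrays, replicate 6 stood far below the other 5 arrays in 3 paralogs. Pdha2 was 5.73 there, against 7.02 to 7.76 on the others, and the gap was 0.635 of the whole range. Ldhc was 6.21, against 8.80 to 10.09, with a gap of 0.667 of the range. Cox6b2 was 7.21, against 8.33 to 9.0, with a gap of 0.626 of the range. The limit for 6 arrays is 0.625, so Pdha2 and Cox6b2 passed it narrowly. In all, 17 groups of values were examined, and chance alone marks about 1 in 20. The pachytene marker mean of the same array was -0.65, against 0.27 to 1.08 on the others.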

How the results depend on the processing

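Counts of called paralogs depended on the settings. With array weights they were 8 between the reciprocal hybrids (main analysis 2), 1 for PWDxB6 minus mid-parent (0), 6 for BALB/CxB6 minus B6xBALB/C (0), 6 for B6xPWD minus B6xBALB/C (0) and 2 for the test between the reciprocal differences (0). Under these weights many more of all genes were called: 14.6% lower and 16.8% higher between the reciprocal hybrids and 0.597% lower for PWDxB6 minus mid-parent. They were 7.01% lower for BALB/CxB6 minus B6xBALB/C, 17.1% higher for B6xPWD minus B6xBALB/C and 7.24% lower for the test between the reciprocal differences. With the pachytene covariate the paralog counts were 0, 5, 0, 6 and 4 in the same order, and 1 higher for PWDxB6 minus PWDxPWK (1.64% of all genes). The same covariate without B6xBALB/C replicate 6, chosen after seeing the data, gave 0, 4, 0, 4 and 2, with 1 for PWDxB6 minus PWDxPWK and 1 for PWD minus B6. Of all genes 1.91% were then called higher and 0.793% lower for PWDxB6 minus mid-parent. For the test between the reciprocal differences 1.73% were called lower. Called higher were 1.6% for PWDxB6 minus PWDxPWK and 5.21% for PWD minus B6. Fitting the compared groups alone gave 1 for PWDxB6 minus mid-parent, where 174 of 14746 genes were called. It gave 1 for PWDxB6 minus PWDxPWK and 6 for PWD minus B6 (3). PWD minus B6 had 1 without the dim filter, where 1120 of 19661 genes were called lower. It had 0 with trend and robust variances, where 1173 of 14746 genes were called lower. Trend and robust variances gave 1 between the reciprocal hybrids, where 234 of 14746 genes were called lower. B6xPWD minus B6xBALB/C had 1 higher with the stricter filter (857 of 11797 genes) and 1 higher with arrays centred on the autosomal median (803 of 14746 genes). It had 2 lower with B6xBALB/C replicates 1 to 3 (5.03% of all genes) and 2 higher with replicates 4 to 6 (5.86%). Replicates 1 to 3 alone gave 4 for BALB/CxB6 minus B6xBALB/C, where 6.24% of all genes were called lower. They gave 1 for the test between the reciprocal differences, where 2.62% of all genes were called lower. B6xPWD minus mid-parent gave 5 to 8 under all these settings. With single arrays of the compared genotypes or B6xBALB/C replicate 6 left out (the latter added after seeing the data for comparisons of other genotypes), the counts ran from 0 to 8 between the reciprocal hybrids, 2 to 8 for B6xPWD minus mid-parent, 0 to 4 for PWD minus B6, 0 to 1 for PWDxB6 minus mid-parent, 0 to 5 for BALB/CxB6 minus B6xBALB/C, 0 to 2 for B6xPWD minus B6xBALB/C and 0 to 1 for the test between the reciprocal differences, and stayed at 0 for PWDxB6 minus PWDxPWK. Of 72 paralog differences, 23 turned with the pachytene covariate, among them Ldhc in PWD minus B6 (from -1.78 to 0.07). Of these, 1 was called on either side, Cox6b2 in PWD minus B6 (from -0.15 to 0.60, limma adjusted p = 0.0148). Array weights turned 5, the replicate block 3 and quantile normalization 1, and leaving out single arrays turned 15 differences, none of them called and none above 0.37 in size. The causes were not tested. Genes called overall ranged from 19 to 4635 between the reciprocal hybrids and 328 to 5968 for B6xPWD minus mid-parent. They ranged from 1353 to 3598 for PWD minus B6 (main analysis 2719) and 94 to 369 for PWDxB6 minus PWDxPWK (211).

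Same-numbered arrays had correlations from -0.32 to 0.44 (median 0.01), over 0.1 in 17 of 57 pairs, with no common pairing over all genotypes. Some were alike: replicate 3 of B6 with that of B6xBALB/C (0.44) and BALB/CxB6 (0.33), and the latter 2 with each other (0.39). Arrays of different numbers were not compared, so pairing among some genotypes was not tested. A fit with the replicate block on replicates 1 to 3 called 8 paralogs lower between the reciprocal hybrids (4.07% of all genes called lower) and 1 lower for PWDxB6 minus mid-parent (0.671%). It called 4 lower for BALB/CxB6 minus B6xBALB/C (6.27%), 2 lower for B6xPWD minus B6xBALB/C (5.11%) and 1 lower for the test between the reciprocal differences (2.88%). That fit also leaves out B6xBALB/C replicates 4 to 6. Leaving out replicate 6 without a block gave 8 between the reciprocal hybrids as well, so the part of the block was not tested. The number of arrays limits the precision, and no scanner signal over background was analysed here.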
